A study of Mus musculus with 2 samples.

Results

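The S100 and annexin genes of the mouse encode calcium-binding proteins, and 30 of the 29923 genes on the arrays belong to them: 18 S100 genes (S100pbp, named for a protein that binds an S100 protein, is counted with them) and 12 annexin genes. They were chosen by name alone, as every non-control spot whose array symbol begins with S100a or Anxa and a digit, or reads S100b, S100g, S100z or S100pbp. They were measured by 41 probes of the 39429 on each array. Late in gestation, at embryonic stage E18.5, ureters of NMRI mouse embryos were pooled by genotype and sex, and the RNA of a Pparg-cKO pool and a control pool was compared directly on each of 2 dual-colour arrays, a female pair (replicate 1) and a male pair (replicate 2). Pparg-cKO embryos carried Pax2-cre/+ and were Pparg(fl/fl), so that the nuclear receptor PPARG was lost where Pax2-cre is active, in the nephric duct and the epithelia that derive from it, including that of the ureter. Control embryos were labelled Pparg(fl/?), with the other allele not stated, and per the study's methods did not carry cre. A pool averages several embryos, whole ureters hold mesenchyme as well as epithelium, and sex, dye orientation and array changed together and cannot be told apart.

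S100 proteins are small and mostly dimeric, and each subunit carries a pair of EF hands, loops that in most of them take up calcium. Annexins bind acidic phospholipids of membranes when calcium rises, and several act as complexes with an S100 dimer: S100A10 with annexin A2, S100A11 with annexin A1 and S100A6 with annexin A11. Both families are abundant in epithelia, including the urothelium, which lines the ureter with a basal layer of B cells, intermediate I cells and superficial S cells. Most mouse S100 genes lie side by side on chromosome 3, whereas annexin genes are scattered.

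S100a1, S100a5 and S100a6, the S100 genes that passed the fold rule described below, lie within that row of genes, and their upstream sequences are shown with those of S100a4, the neighbour of S100a5, and of S100g, which was low in signal but lower on both arrays. Sequences are from RefSeq on GRCm38.p6, 5′ to 3′ on the strand of the gene, and end 1 base before the annotated start. S100a1 and its neighbour S100a13 start 105 bases apart and point away from each other, so the stretch between them is upstream of both. It is printed on the strand of S100a1 (chr3:90514331-90514434, minus strand). The other stretches are the 250 bases before the start of S100a4 (chr3:90603520-90603769, plus strand), S100a5 (chr3:90608272-90608521, plus strand), S100a6 (chr3:90612644-90612893, plus strand) and S100g (chrX:162964600-162964849, minus strand). Capitals mark AGGTCA or its reverse complement, the hexamer on which PPARG and its partner RXR bind as a direct repeat.
S100a1 to S100a13: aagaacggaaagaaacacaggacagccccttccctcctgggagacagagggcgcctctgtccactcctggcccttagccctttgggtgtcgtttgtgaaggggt
S100a4: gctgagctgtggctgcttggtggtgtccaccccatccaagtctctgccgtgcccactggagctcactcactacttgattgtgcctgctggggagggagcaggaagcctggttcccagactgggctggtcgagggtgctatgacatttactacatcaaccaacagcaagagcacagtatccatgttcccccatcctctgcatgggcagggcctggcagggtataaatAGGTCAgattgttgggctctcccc
S100a5: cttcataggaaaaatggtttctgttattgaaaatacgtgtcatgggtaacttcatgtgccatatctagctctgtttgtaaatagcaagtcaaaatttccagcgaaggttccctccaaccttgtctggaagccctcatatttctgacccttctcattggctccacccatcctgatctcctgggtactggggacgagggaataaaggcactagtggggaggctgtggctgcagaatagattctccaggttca
S100a6: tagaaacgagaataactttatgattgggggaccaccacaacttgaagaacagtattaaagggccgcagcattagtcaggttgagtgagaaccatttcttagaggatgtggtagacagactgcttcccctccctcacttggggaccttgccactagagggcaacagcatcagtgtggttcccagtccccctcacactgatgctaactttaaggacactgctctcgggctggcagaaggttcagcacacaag
S100g: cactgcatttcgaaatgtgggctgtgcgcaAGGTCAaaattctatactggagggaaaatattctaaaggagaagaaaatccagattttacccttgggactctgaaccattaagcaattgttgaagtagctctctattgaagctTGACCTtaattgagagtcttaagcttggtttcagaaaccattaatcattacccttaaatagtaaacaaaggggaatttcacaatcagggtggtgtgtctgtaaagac

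The hexamer was looked for on both strands in the RefSeq windows of 300 bases, 250 before and 50 after each start. Of the 30 genes, 24 had such a window, and of their 32 windows (some genes have several starts) 9, belonging to 8 genes, held AGGTCA. Over all genes, 16.3% of 32851 windows held it. S100g held it in 2 places and S100a4 in 1, whereas the stretches of S100a1, S100a5 and S100a6 printed above held none. The window of S100a5 held it only in the 50 bases after the start. The direct repeat with 1 base between its hexamers, AGGTCANAGGTCA, was in 0.0396% of all windows and in 0 windows of these genes. A match says only that these letters are present.

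The arrays gave median signals between 293 and 334 units per channel, with 66.2% to 77.3% of spots well above background and 0 saturated spots. Both lay on 1 slide and were scanned together. Markers of the labelled tissue were present in every pool, the summed processed signal of 8 genes of ureteric mesenchyme and smooth muscle lying between 104591 and 120127 and that of 6 genes of S and I cells between 45366 and 78083. The direction of the ratios is that of the deposited value table, whose columns are titled Pparg-cKO against control. The dye labels of both arrays state the opposite assignment. The deposited direction is the likely one, on the basis that the table places Krt20 and Shh lower in Pparg-cKO ureters and that the study's tissue sections, which do not depend on the arrays, place both lower and the mutant Pparg transcript higher. Should the dye labels prove correct, every "higher" and "lower" is exchanged and every size, total and p-value stays. In the deposited direction the targeted gene Pparg itself was 0.97 ± 0.02 (SD, n = 2 arrays) higher on the log2 scale, with an adjusted p of 0.0373 in limma. The study describes from tissue sections that mutant embryos still make a Pparg transcript lacking the deleted exons, in a greater amount than controls at this stage, and where the array probe lies relative to those exons was not analysed here.

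To find which S100 and annexin genes differ in Pparg-cKO ureters, log2 ratios of Pparg-cKO over control were compared over both arrays in limma, with Benjamini-Hochberg adjustment over 22499 genes, of which 28 are S100 or annexin genes. S100a1 and S100a5 were called, both lower, and 0 annexin genes were. When the ratios came from the deposited table, 0 members and 0 of all genes were called (adjusted p of 0.533 for both members), and with an offset of 0 the calls numbered 7 members, Anxa3, Anxa4 and Anxa13 among them, and 571 of all genes against 169. With the main settings 0.751% of all genes were called, 0.369% lower and 0.382% higher. A fold rule was built on the intensity and fold thresholds that the study's methods apply to normalised expression data on individual arrays. The choice of the brighter channel and of the ratios used here was made for this work, so its counts need not be those of the study. By this rule, a same-sign difference of 1.5-fold or more on each of the arrays and 100 or more processed signal units in the brighter channel of each, 5 of 23 sufficiently bright members passed. S100a1, S100a5, S100a6 and Anxa4 were lower and Anxa3 was higher. Among 14015 bright genes 1.84% passed, 1.05% lower and 0.792% higher. At an unadjusted p under 0.05 in limma stood 11 of the 28 members, 6 S100 and 5 annexin genes, and 1914 of all genes. Log2 ratios of S100 genes had a median of -0.28, and those of annexin genes of -0.02, against 0.01 over all genes tested. For S100 genes the median was -0.16 in females and -0.41 in males. On both arrays 14 members were lower and 5 higher, while 9 had opposite signs, beside 5887 lower, 5986 higher and 10626 opposite over all genes.

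**Figure D1:**
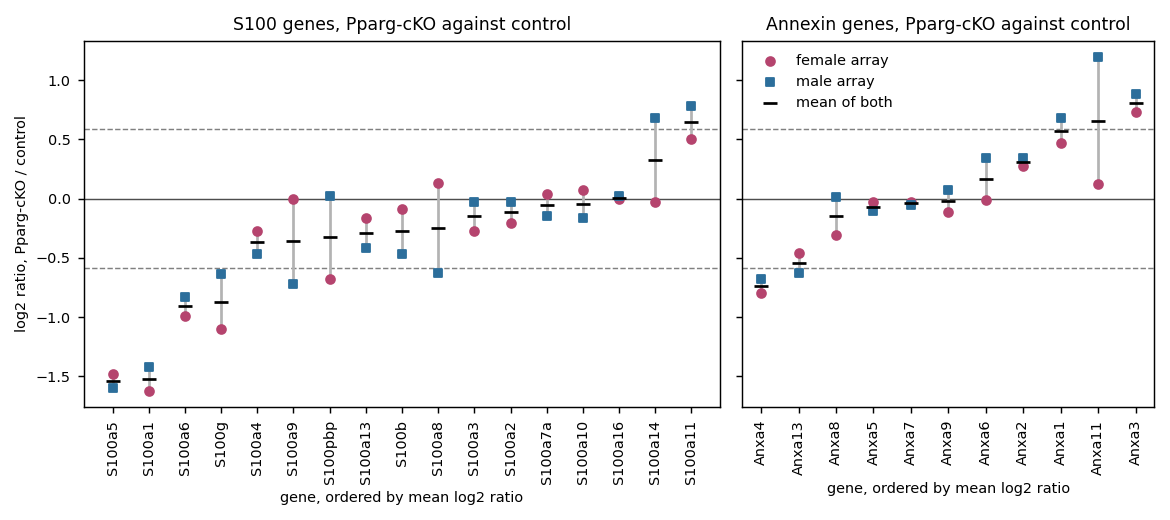
Log2 ratio of Pparg-cKO over control for the 17 S100 genes (left) and 11 annexin genes (right) tested, ordered by the mean. Circles are the female array, squares the male array, bars their mean, and dashed lines 1.5-fold. S100a5, S100a1 and S100a6 sit below the lower line on both arrays with Anxa4 and the dim S100g, and only Anxa3 sits above the upper line on both.

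S100a1, known for binding the calcium release channel and the calcium pump of muscle, was 1 of the pair called in limma. In females its processed signal was 732 in the Pparg-cKO pool and 2378 in the control pool. In males the pools gave 591 and 1681. Both Pparg-cKO pools lay below both control pools. The same held for members with smaller ratios, such as S100a4 and S100a13, and was not counted over all genes. The ratios, on the log2 scale, were -1.62 (female) and -1.43 (male), which averaged -1.52 ± 0.14 (SD, n = 2), or 2.87-fold lower, with an adjusted p of 0.0135 in limma. The probe lies on chromosome 3 at 90315191 to 90315250 (mm9). A second probe of the gene, starting at 90314959, gave -1.62 and -1.61, so that the decrease was seen at both positions of the transcript. In whole ureters, fewer cells that express a gene and less RNA per cell cannot be told apart, here and for every gene below.

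S100a5, a calcium-, zinc- and copper-binding S100 protein found in olfactory neurons, had, with S100a1, the lowest mean ratio of the members. Its signal was 98.1 in the Pparg-cKO and 297 in the control pool of females, and 76.2 and 282 in those of males. The control pools were close to each other, and both Pparg-cKO pools fell under 100 units. Log2 ratios of -1.48 (female) and -1.60 (male) averaged -1.54 ± 0.09 (SD, n = 2), 2.91-fold lower, and limma gave an adjusted p of 0.012. Its single probe lies on chromosome 3 at 90415643 to 90415702 (mm9).

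S100a6 (calcyclin), a growth-regulated S100 protein of epithelial and mesenchymal cells, starts 4372 bases downstream of S100a5. Its probe, on chromosome 3 at 90418160 to 90418219 (mm9), gave 20926 units in the Pparg-cKO and 42953 in the control pool of females. Those of males gave 20738 and 36774. The Pparg-cKO pools were nearly alike and well below both control pools. Log2 ratios of -0.99 (female) and -0.83 (male) averaged -0.91 ± 0.11 (SD, n = 2), 1.88-fold lower, which passed the fold rule while limma gave an adjusted p of 0.051. With the median over the probes of each gene this p was 0.0448, and over all alternatives it lay between 0.00509 and 0.533.

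**Figure D2:**
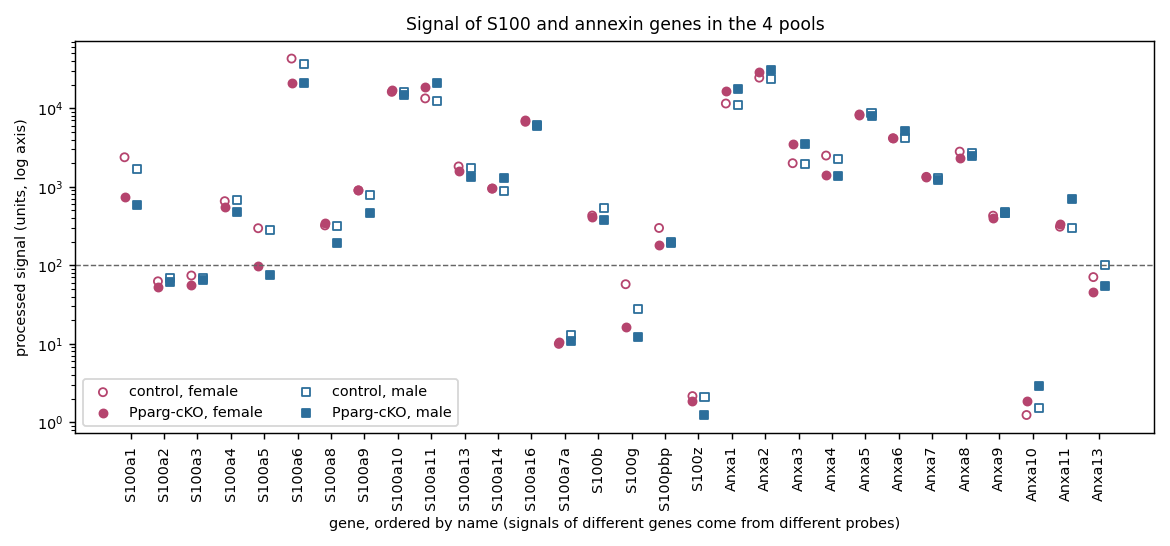
Processed signal (log axis) of each S100 and annexin gene in the 4 pools. Open symbols are controls, filled symbols Pparg-cKO, circles the female and squares the male array, and the dashed line is the signal minimum of 100. Signals of different genes come from different probes and do not rank transcript amounts. Within S100a1, S100a5, S100a6 and Anxa4 both filled symbols lie under both open ones, as in other members such as S100a4, S100a13 and S100b. How many of all genes do so was not counted.

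Next to these genes most of the cluster differed less. Along 182 kb of chromosome 3, from 90314959 to 90496632 (mm9), the probes that represent 12 S100 genes follow each other. With 1 probe per gene and a known position, 0 probes of other genes lay between them, and further probes were not looked for. Of the 12 genes, 8 were lower on both arrays, 0 were higher on both and 4 had opposite signs, and 3 passed the fold rule. The 8 include S100a9, which was practically unchanged on the female array, at a log2 ratio of -0.0005. S100a13, which helps export FGF1 and shares the stretch between starts with S100a1, read 1581 against 1817 and 1316 against 1750, with log2 ratios of -0.16 and -0.41. Its mean of -0.29 had an adjusted p of 0.616 in limma, so the neighbours on either side of that stretch stood at 2.87-fold and 1.22-fold lower. The difference between them was not tested. S100a4 (metastasin), a partner of non-muscle myosin whose start lies 4752 bases before that of S100a5, read 559 against 656 and 477 against 671. Its mean log2 ratio was -0.37, the adjusted p was 0.431, and its second probe gave -0.31 and -0.53 beside -0.27 and -0.47. S100a16, the widely expressed S100 protein, had a mean of 0.01 with signals between 5987 and 7023. S100a2 and S100a3, an epithelial and a hair-cuticle S100 protein, were dim in all pools, at 53.2 to 69.7 and 56.1 to 74.2 units, and S100a7a, the mouse relative of psoriasin, at 9.99 to 12.8 units.

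**Figure D3:**
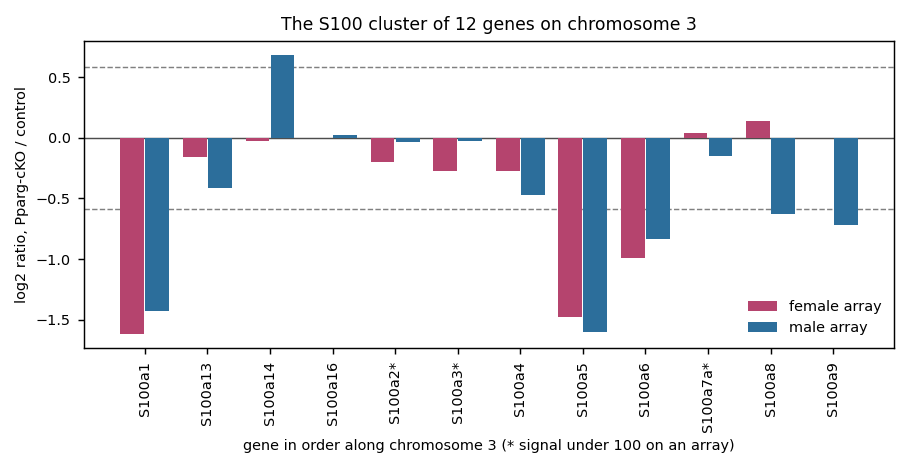
Log2 ratio of Pparg-cKO over control for the 12 S100 genes of the chromosome 3 cluster, in their order along the chromosome, on the female and the male array. Dashed lines mark 1.5-fold, and an asterisk marks genes whose brighter signal was under 100 on at least 1 array. The low bars of the neighbours S100a5 and S100a6 are separated from that of S100a1 by 6 genes with bars nearer 0.

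The annexin genes were split. Anxa4, an annexin of the apical side of epithelial cells, read 1417 units in the Pparg-cKO and 2501 in the control pool of females, and 1354 and 2243 in those of males. Both Pparg-cKO pools lay below both controls. The log2 ratios were -0.79 and -0.68, and the mean of -0.74 ± 0.08 (SD, n = 2), 1.67-fold lower, had an adjusted p of 0.0834 in limma. The probe lies on chromosome 6 at 86686883 to 86686942 (mm9). A second probe, at 86700845, read only 8.03 to 15.9 units and gave -0.31 and 0.03. With the median over the 2 probes the mean was -0.44, and with median centring in place of loess Anxa4 also missed the fold rule. Anxa3, an annexin of neutrophil granules and of epithelia, went the other way. It read 3459 units in the Pparg-cKO and 1998 in the control pool of females, and 3474 and 1931 in those of males. The 2 Pparg-cKO pools were close to each other, as were the control pools. Log2 ratios of 0.73 and 0.88 averaged 0.81 ± 0.11 (SD, n = 2), 1.75-fold higher, and limma gave an adjusted p of 0.0684. Its probe lies on chromosome 5 at 97253925 to 97253984 (mm9).

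Other members stood close to the limits of the rule. The last to pass were Anxa4, at -0.68 on the male array, and Anxa3, at 0.73 on the female array. Just outside were S100a11 and Anxa1, the calgizzarin dimer and the phospholipase-inhibiting annexin that bind each other, each past 1.5-fold on the male array alone. S100a11 read 18769 against 13359 and 20844 against 12387, with log2 ratios of 0.51 and 0.78, which averaged 0.65 (adjusted p of 0.159 in limma). Anxa1 read 16469 against 11502 and 17465 against 10909, with log2 ratios of 0.47 and 0.68, which averaged 0.57 (adjusted p of 0.182). Its second probe gave 0.58 and 0.54. In both genes the Pparg-cKO pools were above both control pools. Below the signal minimum were S100g and Anxa13. S100g encodes calbindin-D9k, the cytosolic calcium carrier of gut and kidney, and read 16.3 against 57.5 and 12.1 against 27.9 units. Its log2 ratios of -1.10 and -0.64 averaged -0.87 (adjusted p of 0.125 in limma), and a second probe that overlaps the first gave -0.94 and -0.58. At this low signal the size depended on the setting, and the mean was -1.51 with scanner-processed signals, -1.50 with the deposited table and -1.20 with an offset of 0. Without a signal minimum, an alternative chosen after the data were seen, S100g was the sixth member to pass the fold rule, and it was called in limma (adjusted p under 0.05) with scanner-processed signals and with an offset of 0. Anxa13, an annexin of intestinal and kidney epithelium, read 46.4 against 70.8 and 54.6 against 99.6, so that its brighter channel was just under the minimum of 100 on the male array and further under it on the female array, with log2 ratios of -0.46 and -0.63.

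The members of the known S100-annexin complexes did not share 1 direction. S100a11 and S100a10 lie further along chromosome 3 than the cluster, at 93330022 and 93368437 (mm9). S100a11 and Anxa1 had means of 0.65 and 0.57. S100a10 and Anxa2, which form the tetramer that holds plasminogen at the cell surface, had means of -0.04 and 0.31. S100a10 read 17265 against 16195 and 14848 against 16059, and Anxa2 29400 against 24543 and 30456 against 23568, so that the Pparg-cKO pools were higher for Anxa2 on both arrays (log2 ratios of 0.28 and 0.34, adjusted p of 0.501 in limma). S100a6 and Anxa11 had means of -0.91 and 0.66. Anxa11 differed between the arrays: female pools read 334 (Pparg-cKO) and 310 (control), male pools 704 and 299, with log2 ratios of 0.12 and 1.19. Its adjusted p was 0.597, and a second probe near background gave 0.00 and 0.21. For each of these pairs the difference between partners was not tested.

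**Figure D4:**
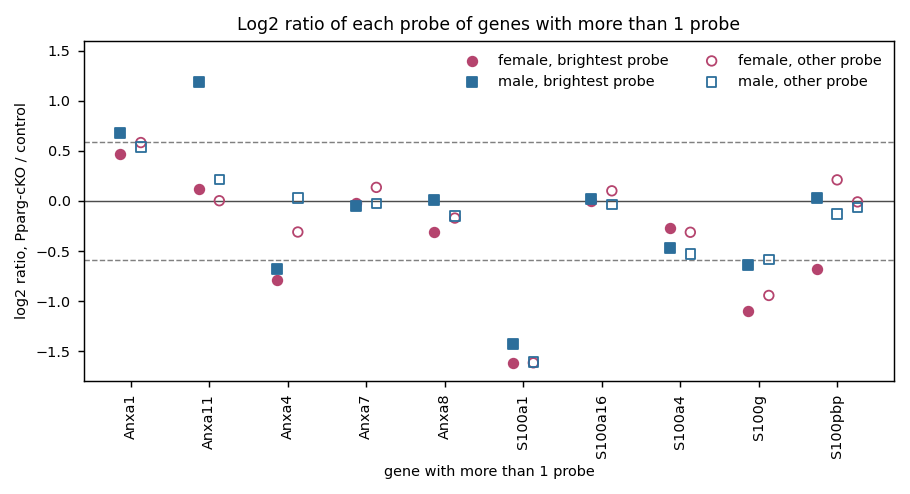
Log2 ratio of each probe for the 10 members with more than 1 probe. Filled symbols are the brightest probe, which represents the gene, open symbols the others, circles the female and squares the male array, and dashed lines mark 1.5-fold. The probes of S100a1, S100a4 and S100g lie close together, while those of Anxa4, Anxa11 and S100pbp lie apart.

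Of the 28 members tested, 0 were at least 1.2-fold changed in opposite directions on the arrays, against 310 of 22499 genes (1.38%). Several were near 0 on 1 array and past 1.5-fold on the other. S100a8 and S100a9 form calprotectin, the zinc- and manganese-binding complex of neutrophils. S100a8 read 350 against 322 in females and 194 against 317 in males, with log2 ratios of 0.13 and -0.63. S100a9 read 907 against 901 and 470 against 782, with log2 ratios of 0.00 and -0.72. The pair was thus past 1.5-fold lower in the male Pparg-cKO pool alone, with adjusted p-values of 0.836 and 0.72 in limma. Of 13 neutrophil genes, 10 were tested, 0 were called in limma (3 at an unadjusted p under 0.05) and 0 passed the fold rule. Their summed signal was 9915 against 9096 in the female and 9355 against 10041 in the male pools, nearly all of it from Csf3r, a receptor gene at 8611 to 9614 units. Their median log2 ratio was -0.09 for females and -0.19 for males. Of the 10 genes 6 were lower on both arrays, 1 was higher on both and 3 had opposite signs. Among genes of neutrophil granules Camp, the lowest of the 10 by mean, had -0.36 and -0.41, Elane had 0.33 and -0.28, and Mpo had 0.10 and 0.13. The part of neutrophil RNA in the S100a8 and S100a9 values was not tested.

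S100a14, an epithelial S100 protein, was higher in the male Pparg-cKO pool alone, with 978 against 947 and 1279 against 884 units and log2 ratios of -0.03 and 0.68. Anxa6, a membrane-bridging annexin of mesenchyme and muscle, had -0.01 and 0.34. On the same male array the median log2 ratio of 14 epithelial genes was 0.49, against 0.05 on the female array. Of these genes 8 were higher on both arrays, 2 lower on both and 4 opposite, 0 were called in limma (6 at an unadjusted p under 0.05), and Krt19, a keratin of simple epithelia, passed the fold rule, higher. Their summed signal was 47014 against 54522 in the female and 62907 against 47407 in the male pools. Single genes varied, from Krt19 at 0.71 in females and 1.29 in males to Krt18, another keratin of simple epithelia, at -1.04 and -0.54. Cdh1, which encodes E-cadherin, had 0.07 and 1.10. The part of epithelial content in the male values of S100a14 and Anxa11 was not tested. S100pbp was lower on the female array alone by its brightest probe (183 against 299 and 190 against 200, log2 ratios of -0.68 and 0.03), while its other 2 probes gave 0.21 and -0.13, and -0.01 and -0.06, so its 3 probes disagreed. S100b, the S100 protein of glia and Schwann cells, read 408 against 431 and 383 against 533, with log2 ratios of -0.09 and -0.47. Of 8 Schwann cell genes 0 were called in limma (2 at an unadjusted p under 0.05) and 0 passed the fold rule, with medians of 0.00 and 0.23 and summed signals between 6472 and 7272.

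**Figure D5:**
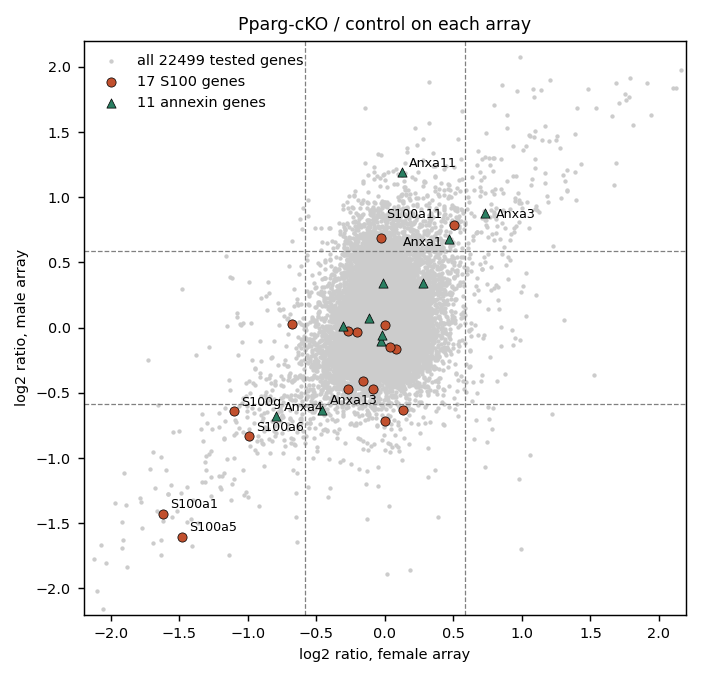
Log2 ratio of Pparg-cKO over control on the female array (horizontal) against the male array (vertical) for all 22499 tested genes (grey), S100 genes (circles) and annexin genes (triangles). Dashed lines mark 1.5-fold, members with a mean beyond 0.5 in size are named, and 38 genes lie outside the axes. S100a1 and S100a5 lie in the lower left corner, and Anxa11 lies high on the male axis alone.

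The remaining annexins varied little. Anxa5, the phosphatidylserine-binding annexin, read 8072 to 8594 units over the 4 pools, and Anxa7 1216 to 1339 units, with mean log2 ratios of -0.07 and -0.04. Anxa8, an annexin of stratified epithelia, had -0.31 and 0.01, and its second probe -0.17 and -0.15. Anxa9 had -0.12 and 0.07. Anxa10 and S100z were not well above background in any pool, at 1.24 to 2.86 and 1.23 to 2.16 units, and were not tested. The median size of the log2 ratio was 0.32 over the 28 members and 0.09 over all genes tested. These sets differ in brightness, as 23 of 30 members reached the signal minimum of 100 against 14015 of 29923 genes. The offset draws ratios of dim genes toward 0, and the part of brightness in the contrast was not tested.

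Genes that work with or resemble these families gave no calls. Of 17 receptors and partners, such as Ager, which encodes the receptor for advanced glycation end products, 16 were tested, 0 were called in limma and 0 passed the fold rule, with mean log2 ratios from -0.40 to 0.52. Cacybp, whose product binds calcyclin, read 6345 against 6077 and 6195 against 6380, a mean of 0.04. The highest value belonged to Pla2g4a, the phospholipase that annexins can inhibit, at 0.51 in females and 0.53 in males (adjusted p of 0.188 in limma). Ahnak, a scaffold held by S100A10 and annexin A2, had 0.15 and 0.87. Of 24 other EF-hand proteins, calmodulins and calpains among them, 22 were tested, with 0 called, 0 past the fold rule, a median of -0.02 and a range of -0.36 to 0.39. Of 15 copines and ferlins, which bind membranes through other calcium-dependent domains, 14 were tested, with 0 called, 0 past the fold rule and a median of -0.03. Of 7 S100 fused-type proteins of cornifying epithelia, 6 were on the array and 2 were well above background, Rptn at -0.59 and Tchh at 0.40, neither called. At an unadjusted p under 0.05 stood 2 genes each of the partners, the EF-hand proteins and the fused-type proteins, and 1 of the copines and ferlins. Calb1 and Slc12a3, markers of the kidney tubule in which S100g is known, were near background, at 2.72 to 5.58 and 0.801 to 2.11 units, and 5 of the 10 kidney tubule and collecting duct genes were not tested for that reason. Of the 5 tested, 3 were higher and 2 lower on both arrays, 0 were called in limma and 1 had an unadjusted p under 0.05. The summed signal of all 10 was 220 against 194 and 249 against 192, of which Scnn1b, a subunit of the epithelial sodium channel, gave 126 against 95.4 and 162 against 91.8 units with log2 ratios of 0.23 and 0.85.

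The decreases of S100a1, S100a5, S100a6 and Anxa4 were measured in pools that also differed in urothelial markers. All 6 genes of S and I cells were lower on both arrays, of which Upk3b and Krt20 were called in limma and Upk1a and Upk1b also passed the fold rule, with a median log2 ratio of -1.26. Their summed signal was 45366 against 78083 in the female and 49855 against 67979 in the male pools. Krt20, a keratin of S cells, had -3.14 and -3.03, and Upk3a, a uroplakin of the plaque on their surface, -0.31 and -0.17. Among 4 genes listed as markers of B cells, Krt14 and Krt15 were called higher, at 1.00 and 1.18. Trp63 had -0.53 and -0.44, and Krt5 had opposite signs, at -0.86 in females and 0.35 in males. Their summed signal was 5435 against 5121 and 7286 against 5148. The study assigns ΔNP63, a product of Trp63, to B and I cells. It describes KRT14 and KRT15 as ectopic in mutant B cells after birth. The list and its sum therefore do not measure B cell content. How much of the S100 and annexin differences comes with the change in urothelial cells was not tested. Of the 8 genes of ureteric mesenchyme and smooth muscle 0 were called in limma (0 at an unadjusted p under 0.05), 3 were lower on both arrays, 0 were higher on both and 5 had opposite signs, with medians of -0.19 and -0.17. Their summed signal was 107158 against 118445 in the female and 104591 against 120127 in the male pools, lower in both Pparg-cKO pools. In limma 0 of 12 macrophage genes were called (0 at an unadjusted p under 0.05), with medians of 0.10 and 0.06, and 0 of 6 endothelial genes (1 at an unadjusted p under 0.05), with medians of 0.04 and 0.14.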

How the data were processed

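Ureter RNA, T7-amplified once, was hybridised by the authors to an Agilent mouse genome array (probe positions on mm9), read with Agilent Feature Extraction 10.7.3.1. Scanner output gave, per the file headers, an intensity for each spot (mean signal, median background and a processed signal) and the log10 red over green ratio. In the value table the authors deposited a signed fold change, here treated as a score, for each probe and array. Here the mean signal was background-corrected with normexp (offset 50) and normalised by loess within arrays in limma 3.58.1 (R 4.3.3). Outlier-flagged spots were left out, which kept 160 and 158 of the 164 member spots, the 4 spots of a probe were averaged, and a gene was represented by its brightest probe. Genes that either channel showed well above background, on each array, were tested with lmFit and eBayes, two-sided (prior of 4.00 degrees of freedom). Arrays were turned to the sign of the deposited table (Pearson correlation with red over green across probes 0.905 and -0.932). The procedure was tested on simulated data.

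The members, the partner and marker lists and the alternatives were chosen with earlier results of these data known. Genes were given in full where they passed the fold rule or had an adjusted p under 0.05, then those near a limit, then the rest by range, and a few genes of the partner and marker lists were named after their values were seen. With 2 arrays of pooled embryos, a p-value sets the mean ratio against the spread between these 2 pairs of pools. In limma that spread is moderated with the spread of all tested genes. Variation between single embryos does not enter, and the number of arrays limits the precision. Alternatives were scanner-processed signals, an offset of 0, median centring, the median over probes, the deposited table, other signal filters and each array alone. RefSeq accessions matched 39 of the 41 probes. Exon structure was not analysed here.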

Additional observations from a re-analysis of the deposited data

How the results depend on the processing

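Under the 6 alternatives to background correction, normalisation, probe choice, source and filter, the 5 members past the fold rule kept their direction in 30 of 30 values. These 5 were picked by their ratios on the same arrays, and some alternatives leave the value of a gene unchanged. A kept direction was therefore largely given and is no independent support. S100a1 ranged from -1.61 to -1.44, S100a5 from -1.74 to -1.45, S100a6 was -0.91 or lower, Anxa4 ranged from -0.77 to -0.44 and Anxa3 from 0.80 to 0.83. The number of members called in limma was 2, and it became 3 with scanner-processed signals (adding S100g) and with the median over probes (adding S100a6), 7 with an offset of 0 (adding S100a6, S100g, Anxa3, Anxa4 and Anxa13) and 0 with the deposited table, where adjusted p-values of S100a1 and S100a5 were 0.533 and 10 members had an unadjusted p under 0.05. Over all genes the same settings gave 571 and 0 calls (2101 at an unadjusted p under 0.05 with the deposited table) against 169, and 94 without a filter on dim probes. By the fold rule the members numbered 4 to 6 under the alternatives on both arrays. On 1 array alone they numbered 6 to 11, and all genes 444 to 1253 against 258, the higher counts without replicate 1 (the male array alone). Median centring turned the split of all genes past the fold rule from 111 higher and 147 lower to 115 and 100. The median of annexin genes, -0.02, changed sign to 0.077 with median centring, to about 0.01 with the median over probes or without the filter on dim probes, and on single arrays lay between -0.025 and 0.074. That of S100 genes stayed between -0.41 and -0.16. The cause was not tested. With 1 array there are no residual degrees of freedom, so limma counts have no such value. The ratio of each array is the difference within its own pair of pools, so the limma fit is already paired. Values under about 100 units, such as those of S100g and Anxa13, are limited by signal over background.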
